A study of Homo sapiens with 24 samples.

Results

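The genes of the kinases inhibited in this experiment were followed as transcripts: the catalytic and regulatory subunits of class I PI3 kinase (PIK3CA, PIK3CB, PIK3CD, PIK3R1 and PIK3R3), the kinase MTOR, the MEK kinases MAP2K1 and MAP2K2, the TAK1 kinase MAP3K7 and its partner TAB2. They were chosen by symbol, as genes of the targets of the compounds. All 10 were found among the 23368 genes of the count table, and all 10 were among the 13947 genes that passed the filter on low counts.

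The cells were AGS, an established human gastric adenocarcinoma line that the labels describe as wild type, harvested after 24 h. Of 6 groups, each with 4 libraries, 1 was a control and 3 received a single inhibitor. These were PI103 (0.7 µM), which blocks class I PI3 kinase and mTOR, PD0325901 (0.035 µM), which blocks MEK, or (5Z)-7-oxozeaenol (0.5 µM, below oxozeaenol), which blocks TAK1. The last 2 groups received PI103 together with either oxozeaenol or PD0325901, with every compound at 50% of its single-agent dose. The labels do not say whether the controls received solvent. They describe the 4 replicates of a group as biological, and all come from 1 cell line.

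As background, class I PI3 kinases are pairs of a catalytic subunit and a regulatory subunit, which holds the enzyme in check and brings it to activated receptors. Their lipid product recruits AKT, and mTOR acts further down in separate protein complexes that control growth and protein synthesis. MEK activates ERK in the RAS and RAF cascade. TAK1 is switched on by inflammatory receptors through TAB2, which binds ubiquitin chains, and it passes the signal to the IKK complex and to the JNK and p38 kinases. The compounds act on the proteins. The libraries measured RNA, so kinase activity and protein amount are not analysed here.

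The libraries held 38.1 M to 84.2 M gene counts. The epithelial markers EPCAM, KRT8, KRT18, KRT19 and CLDN4 were all detected and summed to 4604 to 7511 counts-per-million (CPM) per library. Endothelial markers summed to at most 0.452 CPM, fibroblast markers to 8.14 to 34.2 CPM (1 of 5 above a mean of 1 CPM), and leukocyte markers to 37.8 to 466 CPM, again with 1 of 5 above 1 CPM, which was LYZ. Values below are CPM of the scaled library size, in the order of replicates 1 to 4. Log2 fold changes are given with their standard error (SE), and each adjusted p is from edgeR's two-sided quasi-likelihood test with Benjamini-Hochberg adjustment over the 13947 genes. A gene is said to have risen or fallen where that p was under 0.05.

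PIK3CD rose and TAB2 fell in all 5 treatments, and no treated library overlapped a control library for either gene. The 5 comparisons share the same 4 control libraries, and the share of all genes that did likewise in all 5 is not given here. The same was common among the listed pathway genes below. PIK3R2, PIK3C2B, INPP4B, AKT1, MAPKAP1, TSC1, TSC2, MAPK3 and RIPK1, among others, also rose in all 5. EIF4EBP1, RPS6KB1, TTI2, NRAS, BRAF, KSR1, SHOC2 and CHUK, among others, also fell in all 5. PIK3R3 moved in opposite directions between treatments, over the widest range of the 10 genes. PIK3CA fell with oxozeaenol and rose with PI103. PI103 changed 5 of the 10 genes, where 51.4% of all tested genes changed: 2 rose (26.2% of all genes) and 3 fell (25.2%). PD0325901 changed 4 (58.6% of all genes), of which 3 rose (28.7%) and 1 fell (29.9%). Oxozeaenol changed 5 (51.9%), of which 2 rose (25.7%) and 3 fell (26.1%). PI103 with oxozeaenol changed 6 (55.6%), of which 2 rose (27.7%) and 4 fell (27.9%), and PI103 with PD0325901 changed 4 (64.8%), of which 2 rose (32.2%) and 2 fell (32.6%). With 1 library left out in turn the combination with oxozeaenol changed 3 to 5, and 3 without control replicate 1. Under scaling by total counts PI103 changed 3 (2 rose, 1 fell), PI103 with oxozeaenol 4 (3 rose, 1 fell) and PI103 with PD0325901 6 (5 rose, 1 fell). The counts of the 10 genes as a set thus lay on both sides of the shares of all genes, and nothing about the set is read from them.

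The median sizes of change lay below those of all genes. The median absolute log2 fold change of the 10 genes was 0.25 with PI103 against 0.35 over all tested genes, 0.14 against 0.40 with PD0325901, and 0.24 against 0.34 with oxozeaenol. In the combinations it was 0.25 against 0.37 with oxozeaenol and 0.18 against 0.47 with PD0325901. A change of at least 1.5-fold was called for 4 of the 10 genes with oxozeaenol (25.1% of all genes) and for 2 in every other treatment (24.9% with PI103, 31.4% with PD0325901, 28.4% and 38.3% in the combinations with oxozeaenol and with PD0325901). Treated and control libraries did not overlap for 4 of the 10 genes in each treatment, beside 48.9%, 49%, 42.2%, 52.6% and 56.9% of all genes in the order PI103, PD0325901, oxozeaenol, PI103 with oxozeaenol and PI103 with PD0325901.

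**Figure D1:**
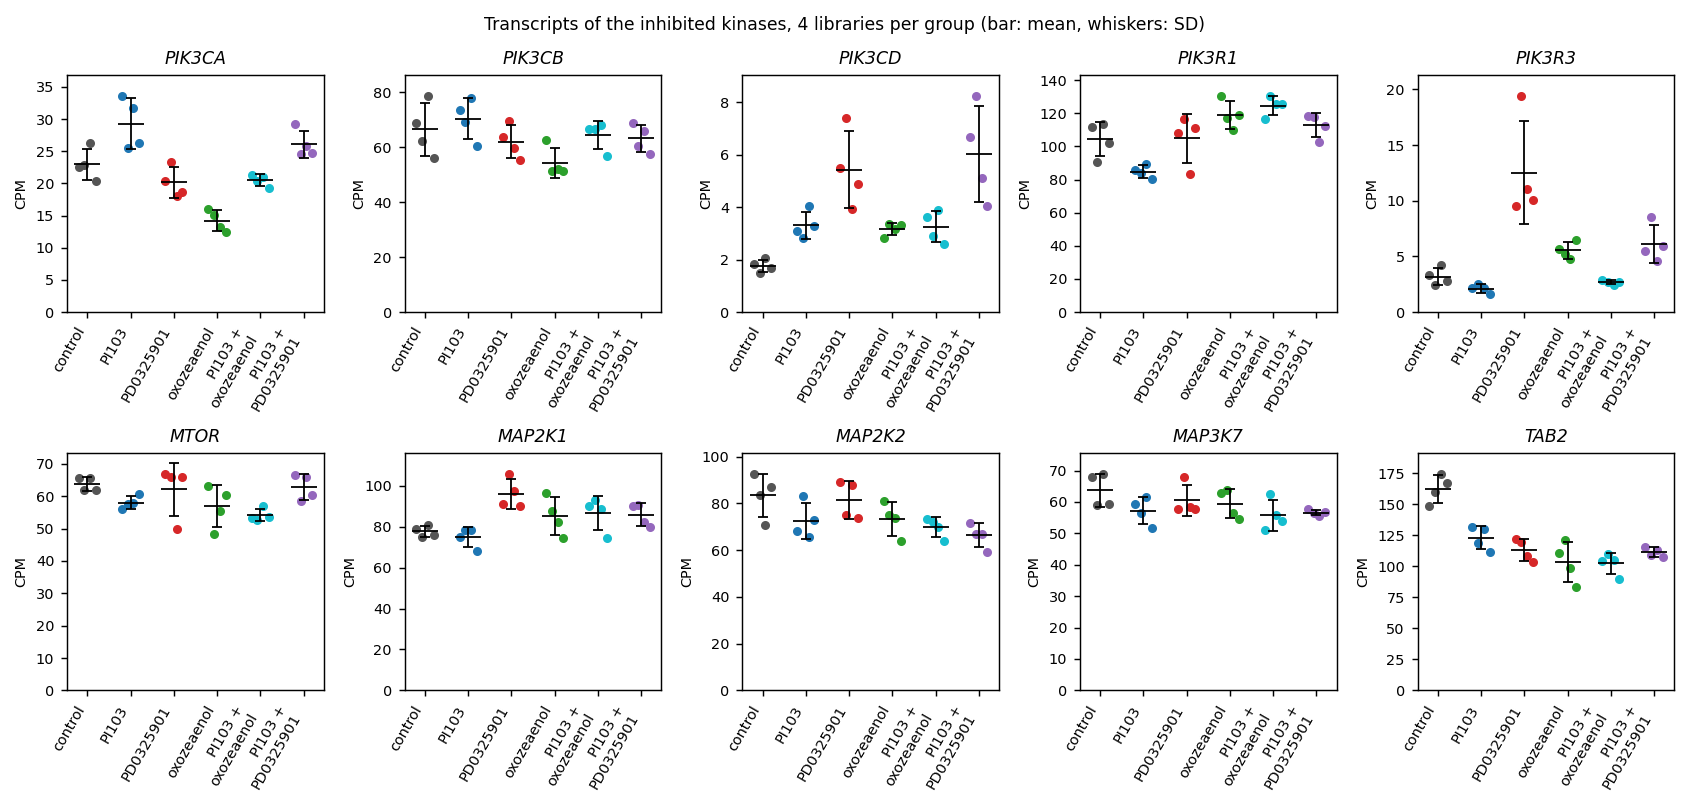
CPM of the 10 genes in every library, 1 panel per gene on its own axis from 0. Points are the 4 libraries of a group, bars the mean and whiskers the SD; all treated points lie above control for PIK3CD and below control for TAB2.

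Among the catalytic subunits, PIK3CD encodes p110 delta, the form best known from white blood cells. It lies on chromosome 1 from 9651732 to 9729114 on the plus strand (GRCh38). PIK3CD and PIK3R3 had the 2 largest rises, so the 250 bases before 1 start site of each are shown, from RefSeq on GRCh38.p14. RefSeq lists 3 starts for PIK3CD and 6 for PIK3R3, and the one nearest the annotated gene start was used. The other starts were not searched. Capitals mark matches to the GC box GGGCGG, on either strand. The windows are chr1:9651481-9651730 on the plus strand for PIK3CD and chr1:46133037-46133286 on the minus strand for PIK3R3, both written 5′ to 3′ along the gene.
PIK3CD: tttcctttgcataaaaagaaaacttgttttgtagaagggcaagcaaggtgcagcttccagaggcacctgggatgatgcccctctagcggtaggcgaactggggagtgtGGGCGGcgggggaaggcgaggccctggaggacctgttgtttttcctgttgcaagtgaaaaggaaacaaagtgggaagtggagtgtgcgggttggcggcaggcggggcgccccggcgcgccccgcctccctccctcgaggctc
PIK3R3: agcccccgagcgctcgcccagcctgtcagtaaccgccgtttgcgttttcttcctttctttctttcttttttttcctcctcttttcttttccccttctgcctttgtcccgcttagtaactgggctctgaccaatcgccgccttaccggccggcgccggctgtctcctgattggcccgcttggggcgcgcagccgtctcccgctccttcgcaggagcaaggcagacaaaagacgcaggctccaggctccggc
The PIK3CD window holds 1 GC box, 142 bases before the start, a match that 42.6% of 35116 RefSeq promoter windows of this length also hold. The PIK3R3 window holds none. Neither holds the ETS letters CCGGAAG (8.52% of windows), the FOXO letters GTAAACA (2.98%), the AP-1 letters TGACTCA (4.2%) or the E-box CACGTG (6.34%), on either strand. The searches cover these letters in these windows only.

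PIK3CD was at 1.83, 1.49, 2.05 and 1.69 CPM in control. It was at 3.07, 2.83, 4.05 and 3.26 CPM with PI103 and at 2.84, 3.34, 3.18 and 3.33 CPM with oxozeaenol. PIK3CD reached 5.47, 7.40, 3.94 and 4.88 CPM with PD0325901. Every treated library was above every control library, and the PD0325901 libraries were mostly the highest of the single agents. In the combinations PIK3CD was at 3.63, 2.91, 3.88 and 2.61 CPM with oxozeaenol and at 6.67, 8.23, 5.11 and 4.04 CPM with PD0325901. The combination with PD0325901 spanned the widest range of any group for this gene.

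PIK3CD rose 1.86-fold with PI103 (log2 fold change 0.90, SE 0.20, adjusted p 0.000631), 1.79-fold with oxozeaenol (0.84, SE 0.20, adjusted p 0.00129) and 1.84-fold with PI103 and oxozeaenol together (0.88, SE 0.20, adjusted p 0.000672). It rose 3.05-fold with PD0325901 (log2 fold change 1.61, SE 0.20, adjusted p 2.02e-07) and 3.40-fold with PI103 and PD0325901 (1.76, SE 0.20, adjusted p 3.15e-08). By their means the groups thus lay at 3 levels: control, then PI103, oxozeaenol and their combination, then the 2 groups with PD0325901. The upper 2 levels overlapped. PI103 replicate 3 (4.05 CPM) was above PD0325901 replicate 3 (3.94 CPM) and replicate 4 of PI103 with PD0325901 (4.04 CPM). Between the single agents PIK3CD was lower with PI103 than with PD0325901 (log2 fold change -0.71, adjusted p 0.00425), although ranges overlapped. It was also lower with oxozeaenol than with PD0325901 (-0.77, adjusted p 0.00514), without overlap. PI103 and oxozeaenol differed by 0.06 (SE 0.20, adjusted p 0.84). CLSTN1 overlaps 1.41% of the exon length of PIK3CD on the opposite strand, and the annotation lists a processed pseudogene, PIK3CDP1. CLSTN1 had 6088 to 19236 counts per library, beside 80 to 533 for PIK3CD. CLSTN1 rose with PI103 (log2 fold change 0.35), PD0325901 (0.28), PI103 and oxozeaenol (0.28) and PI103 and PD0325901 (0.41). With oxozeaenol alone it did not (0.10, adjusted p 0.394). The effect of this overlap on the PIK3CD counts was not tested. In these bulk libraries a change in the share of cells with a transcript and a change per cell cannot be told apart. Of the leukocyte markers LYZ was also higher in the treated groups, with means of 267 to 390 CPM beside 44.9 CPM in control. PTPRC, which marks white blood cells as a whole, was at most 0.101 CPM and CD14 at most 0.140 CPM in any library. CD3E was at 0 in most libraries. A link between these markers and PIK3CD was not tested.

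PIK3CA encodes p110 alpha, the catalytic subunit most often altered in tumours, and lies on chromosome 3 from 179148114 to 179240093. PIK3CA was at 22.5, 22.8, 26.2 and 20.3 CPM in control, 33.6, 25.5, 31.7 and 26.3 CPM with PI103, and 16.1, 15.2, 13.3 and 12.4 CPM with oxozeaenol. With PD0325901 it was at 20.4, 23.4, 18.1 and 18.7 CPM. All oxozeaenol libraries were below all controls, while the PI103 libraries overlapped the highest control and 2 of the 4 PD0325901 libraries lay below the lowest control. PIK3CA fell to 0.620 of control with oxozeaenol (log2 fold change -0.69, SE 0.11, adjusted p 6.28e-06) and rose 1.27-fold with PI103 (0.35, SE 0.10, adjusted p 0.0068). With PD0325901 the log2 fold change was -0.19 (95% interval -0.40 to 0.02, adjusted p 0.124).

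The direct comparison of the 2 single agents gave 2.05-fold more PIK3CA with PI103 than with oxozeaenol (log2 fold change 1.04, SE 0.11, adjusted p 2.31e-08), with no overlap. PIK3CA was also higher with PI103 than with PD0325901 (0.54, adjusted p 0.000153) and lower with oxozeaenol than with PD0325901 (-0.50, adjusted p 0.00117). When PI103 and oxozeaenol were combined, PIK3CA was at 21.4, 20.4, 21.0 and 19.2 CPM, between the single agents and beside control (log2 fold change -0.17, 95% interval -0.37 to 0.04, adjusted p 0.185). With PI103 and PD0325901 it was at 29.2, 24.5, 25.8 and 24.8 CPM (0.18, 95% interval -0.02 to 0.39, adjusted p 0.127). This last comparison passed the threshold without control replicate 3 (0.26, adjusted p 0.045) and under scaling by total counts (0.31, adjusted p 0.0179). KCNMB3 lies on the opposite strand over 35.8% of the exon length of PIK3CA. It had 4 to 30 counts per library, and the labels do not say if reads were counted by strand.

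PIK3CB encodes p110 beta and lies on chromosome 3 from 138652699 to 138834938 on the minus strand. PIK3CB was at 68.9, 62.4, 78.5 and 56.0 CPM in control and at 62.5, 51.4, 52.1 and 51.3 CPM with oxozeaenol, with overlapping ranges. It fell to 0.817 of control with oxozeaenol (log2 fold change -0.29, SE 0.10, adjusted p 0.0202). The call was lost without control replicate 1 (adjusted p 0.0534), control replicate 3 (-0.20, adjusted p 0.135), oxozeaenol replicate 2 (0.061) or oxozeaenol replicate 4 (0.0569). In the other 4 treatments the PIK3CB log2 fold change lay between -0.10 and 0.08, with adjusted p of 0.421 or more. PIK3CB was higher with PI103 than with oxozeaenol (0.37, SE 0.10, adjusted p 0.005), although ranges overlapped.

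**Figure D2:**
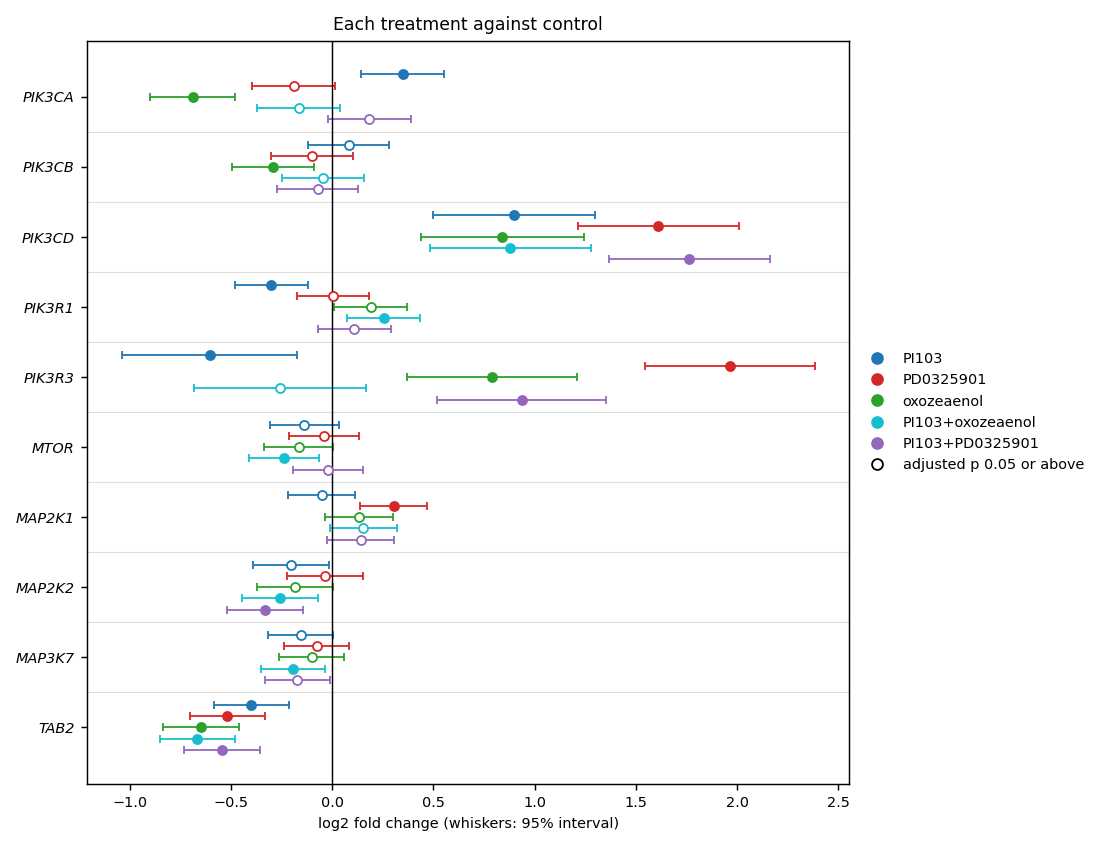
Log2 fold change of each gene in each treatment against control, with whiskers for the 95% interval; filled symbols passed an adjusted p of 0.05. The 5 PIK3CD symbols lie to the right of 0, the 5 TAB2 symbols to the left, and PIK3R3 spans from -0.60 to 1.96.

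Of the regulatory subunits, PIK3R3 encodes p55 gamma, a short regulatory subunit, and lies on chromosome 1 from 46040140 to 46133036 on the minus strand. PIK3R3 was at 3.32, 2.44, 4.21 and 2.81 CPM in control and at 9.52, 19.4, 11.1 and 10.0 CPM with PD0325901. It was at 5.69, 5.23, 4.74 and 6.49 CPM with oxozeaenol and at 2.15, 2.57, 2.13 and 1.60 CPM with PI103. All PD0325901 and oxozeaenol libraries were above all controls, and PD0325901 replicate 2 stood far above the other 3 of its group. The PI103 libraries overlapped control through 1 library.

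PIK3R3 rose 3.90-fold with PD0325901 (log2 fold change 1.96, SE 0.21, adjusted p 2.26e-08), the largest change against control of any of the 10 genes. Without replicate 2 of that group the log2 fold change was 1.70. It rose 1.73-fold with oxozeaenol (0.79, SE 0.21, adjusted p 0.00322). With PI103 it fell to 0.658 of control (-0.60, SE 0.22, adjusted p 0.0244). That fall was not called without control replicate 3 (-0.44, adjusted p 0.117) or without PI103 replicate 4 (-0.49, adjusted p 0.0894), nor with libraries scaled by total counts alone (-0.53, adjusted p 0.053).

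Each pair of single agents differed in PIK3R3 with no overlap of libraries. The log2 fold change was -2.57 for PI103 against PD0325901 (SE 0.22, adjusted p 1.07e-09), -1.39 for PI103 against oxozeaenol (SE 0.22, adjusted p 1.58e-05) and -1.17 for oxozeaenol against PD0325901 (SE 0.21, adjusted p 0.000209). The order of the single agents was therefore PI103, then oxozeaenol, then PD0325901. In the annotation PIK3R3 shares 17.4% of its exon length with a second gene model on the same strand, AL358075.4, so part of its reads could have been counted as ambiguous.

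PIK3R1 encodes p85 alpha, the most widely expressed regulatory subunit, with shorter forms from the same gene, and lies on chromosome 5 from 68215720 to 68301821. PIK3R1 was at 111, 90.6, 114 and 102 CPM in control and at 86.0, 83.8, 89.2 and 80.1 CPM with PI103. With PI103 and oxozeaenol it was at 117, 130, 125 and 126 CPM. The PI103 group lay below and this combination above every control. PIK3R1 fell to 0.812 of control with PI103 (log2 fold change -0.30, SE 0.09, adjusted p 0.0077) and rose 1.19-fold with PI103 and oxozeaenol (0.25, SE 0.09, adjusted p 0.0207).

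The PIK3R1 calls were small and sensitive. The rise was lost without control replicate 2 (adjusted p 0.0968), without replicate 2 of the combination (0.0555) and with no filter on low counts (0.0838). The fall with PI103 was lost under scaling by total counts (-0.23, adjusted p 0.0598). With PD0325901 PIK3R1 was at 108, 116, 83.2 and 111 CPM, a log2 fold change of 0.00 (95% interval -0.17 to 0.18). Oxozeaenol gave 130, 117, 110 and 119 CPM (0.19, 95% interval 0.01 to 0.37, adjusted p 0.0855). With PI103 and PD0325901 the log2 fold change of PIK3R1 was 0.11 (adjusted p 0.298), and 0.24 under scaling by total counts (adjusted p 0.0401). PIK3R1 was lower with PI103 than with oxozeaenol (-0.49, adjusted p 0.000121) and than with PD0325901 (-0.31, adjusted p 0.00828).

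MTOR, on chromosome 1 from 11106535 to 11262507, encodes the kinase of both mTOR complexes. MTOR was at 65.7, 62.1, 65.7 and 61.8 CPM in control and at 56.0, 57.6, 57.9 and 60.6 CPM with PI103, its own inhibitor. The PI103 libraries lay just below the controls, but the log2 fold change of -0.14 did not pass the test (95% interval -0.31 to 0.03, adjusted p 0.197). With PI103 and oxozeaenol MTOR was at 53.3, 52.8, 56.9 and 53.6 CPM and fell to 0.849 of control (-0.24, SE 0.09, adjusted p 0.0239). This call was lost without control replicate 1 (adjusted p 0.0569) or 3 (0.0525) or without replicate 1 (0.0502), 2 (0.0556) or 4 (0.0512) of the combination. MTOR had uncalled log2 fold changes of -0.04 with PD0325901, -0.17 with oxozeaenol and -0.02 with the PD0325901 combination, where the 95% interval ran from -0.19 to 0.15.

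Of the 2 MEK genes, MAP2K1, which encodes MEK1, lies on chromosome 15 from 66386817 to 66492312. MAP2K1 was at 79.0, 75.1, 80.9 and 76.1 CPM in control and at 90.9, 106, 97.5 and 90.0 CPM with PD0325901, all above control. It rose 1.23-fold with PD0325901, the MEK inhibitor (log2 fold change 0.30, SE 0.08, adjusted p 0.00336). PI103 gave 74.9, 78.6, 78.2 and 68.3 CPM (-0.05, 95% interval -0.22 to 0.11). MAP2K1 was lower with PI103 than with PD0325901, without overlap (-0.36, SE 0.08, adjusted p 0.00126).

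With oxozeaenol MAP2K1 had a log2 fold change of 0.13 (adjusted p 0.197), with the oxozeaenol combination 0.15 (adjusted p 0.124) and with the PD0325901 combination 0.14 (adjusted p 0.149). The second of these passed the threshold without replicate 4 of that combination (0.22, adjusted p 0.0348), and the last 2 passed under scaling by total counts (0.22, adjusted p 0.049, and 0.27, adjusted p 0.0122). SNAPC5 and the antisense gene AC116913.1 overlap 5.75% and 11.5% of the exon length of MAP2K1 on the opposite strand. SNAPC5 was counted 304 to 679 times per library.

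MAP2K2, which encodes MEK2, lies on chromosome 19 from 4090321 to 4124129 on the minus strand. MAP2K2 was at 92.4, 83.6, 70.6 and 87.2 CPM in control, 89.1, 74.9, 88.0 and 73.7 CPM with PD0325901, and 71.8, 67.0, 67.0 and 59.4 CPM with PI103 and PD0325901. Control replicate 3 was the lowest control and overlapped the combination. MAP2K2 fell to 0.795 of control with PI103 and PD0325901 (log2 fold change -0.33, SE 0.10, adjusted p 0.00408), although not under scaling by total counts (-0.20, adjusted p 0.0813). It fell to 0.836 of control with PI103 and oxozeaenol (-0.26, SE 0.10, adjusted p 0.0258).

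The fall of MAP2K2 with PI103 and oxozeaenol was not called without control replicate 1 (adjusted p 0.101) or 4 (0.0628) or replicate 4 of the combination (0.0901). With PI103 alone the log2 fold change was -0.20 (adjusted p 0.0799). It passed with the replicate number as a block (adjusted p 0.0491), without control replicate 3 (0.0243) and without PI103 replicate 2 (0.0269). With oxozeaenol it was -0.18 (adjusted p 0.114, and 0.0442 without control replicate 3). The ratio of MAP2K1 to MAP2K2 in CPM was 0.937 in control and 1.29 with PI103 and PD0325901 (geometric means of 4 libraries).

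MAP3K7 encodes TAK1, the target of oxozeaenol, and lies on chromosome 6 from 90513573 to 90587045 on the minus strand. MAP3K7 was at 67.9, 59.0, 68.8 and 59.4 CPM in control and at 63.0, 63.7, 56.4 and 54.7 CPM with oxozeaenol. These ranges overlapped, and the log2 fold change was -0.10 (95% interval -0.26 to 0.06, adjusted p 0.313). With PI103 and oxozeaenol MAP3K7 fell to 0.874 of control (-0.19, SE 0.08, adjusted p 0.0467), the weakest call among the 10 genes. It was lost without control replicate 1 (adjusted p 0.137) or 3 (0.171), without replicate 1 (0.184), 3 (0.0881) or 4 (0.113) of the combination, and with only these 2 groups in the fit (0.0711).

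With PI103 and PD0325901 MAP3K7 was at 57.7, 56.4, 55.6 and 56.7 CPM, below all controls. The log2 fold change of -0.17 had an adjusted p of 0.0667. With the replicate number as a block that p was 0.0463, and it was 0.0425 and 0.0442 without control replicates 2 and 4. PI103 alone gave -0.16 (adjusted p 0.116) and PD0325901 alone -0.08 (adjusted p 0.436).

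TAB2, the adaptor that links TAK1 to ubiquitin chains, lies on chromosome 6 from 149218641 to 149411613. TAB2 was at 148, 160, 174 and 167 CPM in control and at 111, 121, 99.0 and 83.3 CPM with oxozeaenol. It was at 131, 119, 130 and 112 CPM with PI103 and at 122, 119, 108 and 103 CPM with PD0325901. All single-agent libraries were below the lowest control. The combinations gave 105, 110, 105 and 90.1 CPM with oxozeaenol and 116, 109, 113 and 107 CPM with PD0325901, again all below control.

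TAB2 fell to 0.758 of control with PI103 (log2 fold change -0.40, SE 0.09, adjusted p 0.000946), to 0.698 with PD0325901 (-0.52, SE 0.09, adjusted p 4.17e-05) and to 0.639 with oxozeaenol (-0.65, SE 0.09, adjusted p 3.11e-06). It fell to 0.630 with PI103 and oxozeaenol (-0.67, SE 0.09, adjusted p 1.61e-06) and to 0.686 with PI103 and PD0325901 (-0.54, SE 0.09, adjusted p 1.76e-05). For the gene of the kinase itself, MAP3K7, the log2 fold change lay closer to 0 in each of these comparisons, from -0.19 to -0.08. The ratio of MAP3K7 to TAB2 in CPM was 0.393 in control, with SD 0.16 on the log2 scale, and 0.466 to 0.578 in the treated groups. TAB2 was higher with PI103 than with oxozeaenol (0.25, SE 0.09, adjusted p 0.0366). That difference was lost in 5 of the fits that leave out 1 library, namely PI103 replicates 1 (adjusted p 0.112), 2 (0.0533) and 3 (0.107) and oxozeaenol replicates 3 (0.0889) and 4 (0.169), and with only these 2 groups in the fit (0.0615).

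Set against each other, the single agents differed in 5 of the 10 genes for PI103 and PD0325901 (44.5% of all tested genes), in 5 for PI103 and oxozeaenol (43.1%) and in 3 for oxozeaenol and PD0325901 (28.5%), or in 5 without oxozeaenol replicate 1. PIK3CA and PIK3R3 differed in all 3 pairs, without overlap. With the replicate number as a block MAP2K1 was also lower with PI103 than with oxozeaenol (log2 fold change -0.18, adjusted p 0.028) and lower with oxozeaenol than with PD0325901 (-0.17, adjusted p 0.0458). Without oxozeaenol replicate 1, MAP2K1 (-0.27, adjusted p 0.0346) and PIK3CB (-0.30, adjusted p 0.0443) were lower with oxozeaenol than with PD0325901. Without PD0325901 replicate 3, MTOR was too (-0.22, adjusted p 0.0467). MAP2K1 was called lower with PI103 than with oxozeaenol without oxozeaenol replicate 4 (-0.24, adjusted p 0.0274).

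Each combination was then compared with its single agents, where the shared compound was at 50% of the concentration it had alone. PI103 with oxozeaenol differed from PI103 in 2 of the 10 genes (18.3% of all genes) and from oxozeaenol in 2 (14.9%). Against PI103, PIK3CA was lower (log2 fold change -0.51, SE 0.10, adjusted p 0.000874) and PIK3R1 higher (0.55, SE 0.09, adjusted p 8.51e-05), both without overlap. Against oxozeaenol, PIK3CA was higher (0.52, SE 0.11, adjusted p 0.0016) and PIK3R3 lower (-1.05, SE 0.22, adjusted p 0.00192), also without overlap. PIK3R3 was at 2.90, 2.69, 2.42 and 2.71 CPM in this combination, overlapping control (-0.26, 95% interval -0.68 to 0.17, adjusted p 0.325).

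With the replicate number as a block the combination differed from PI103 in 4 genes, as TAB2 was lower (log2 fold change -0.27, adjusted p 0.0178, and 0.0501 without the block) and MAP2K1 higher (0.20, adjusted p 0.0286, and 0.0912 without it). TAB2 also passed in that comparison with DESeq2 (adjusted p 0.0448), with only the 2 groups in the fit (0.0104), without PI103 replicate 4 (0.0388) and without replicate 2 of the combination (0.0497). MAP2K1 passed without replicate 4 of the combination (0.27, adjusted p 0.0345). Against oxozeaenol, PIK3CB was higher with the block (0.24, adjusted p 0.0245, and 0.107 without it) and without oxozeaenol replicate 1 (0.33, adjusted p 0.0385).

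For PI103 with PD0325901, 3 of the 10 genes differed from PI103 alone (38.7% of all genes) and 3 from PD0325901 alone (18.1%), or 1 without PD0325901 replicate 3. Against PI103, PIK3R3 was 2.91-fold higher (log2 fold change 1.54, SE 0.22, adjusted p 5.46e-06), PIK3CD 1.82-fold higher (0.87, SE 0.20, adjusted p 0.00101) and PIK3R1 1.33-fold higher (0.41, SE 0.09, adjusted p 0.000919). The PIK3CD ranges overlapped, and those of PIK3R3 and PIK3R1 did not. PIK3R3 was at 5.49, 8.57, 4.57 and 5.96 CPM in this combination. It lay above control by 1.91-fold (0.94, SE 0.21, adjusted p 0.000425) and below PD0325901 alone, at 0.491 of it (-1.03, SE 0.21, adjusted p 0.00133). MAP2K1 was higher than with PI103 with the block (0.19, adjusted p 0.0226, and 0.0732 without it) and under scaling by total counts (0.25, adjusted p 0.0331).

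Against PD0325901 alone, PI103 with PD0325901 also had more PIK3CA (log2 fold change 0.37, SE 0.10, adjusted p 0.0152) and less MAP2K2 (-0.30, SE 0.10, adjusted p 0.0336). The PIK3CA call was lost without PD0325901 replicate 3 (adjusted p 0.0692) or replicate 1 of the combination (0.0705). The MAP2K2 call was lost without PD0325901 replicate 1 (0.0915) or 3 (0.112) or replicate 3 (0.0596) or 4 (0.106) of the combination. PIK3CD in this combination differed little from PD0325901 alone (0.15, SE 0.19, adjusted p 0.619).

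**Figure D3:**
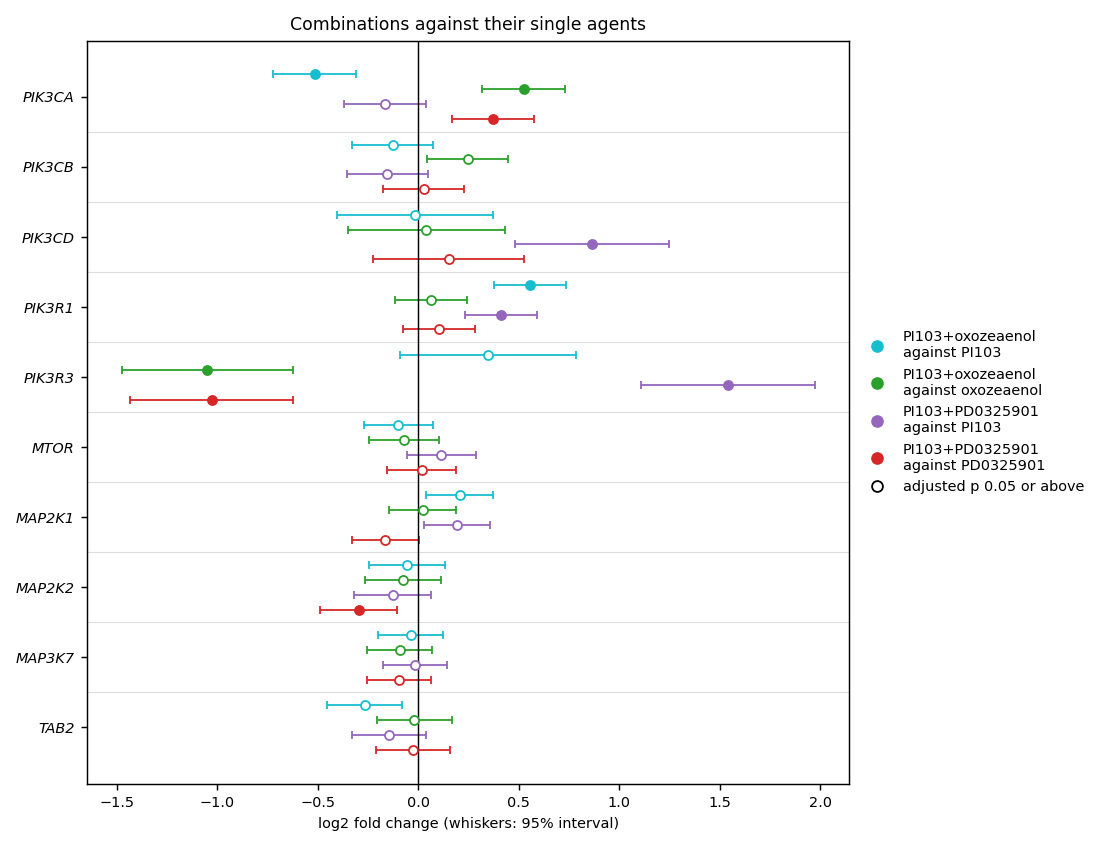
Log2 fold change of each gene for the 2 combinations against each of their single agents, with whiskers for the 95% interval; filled symbols passed an adjusted p of 0.05. PIK3R3 lies near -1 against oxozeaenol and against PD0325901 and at 1.54 for PI103 with PD0325901 against PI103.

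Levels of different genes were compared per kilobase of GENCODE exon length. The annotation used for the counts is not given, so these lengths are an assumption, also for the shares of subunits below. In control TAB2 was the highest at 27.0 CPM per kb, then MAP2K1 at 20.7, MAP2K2 at 15.9, PIK3R1 at 9.70, MAP3K7 at 8.82, PIK3CB at 8.46, MTOR at 5.27, PIK3CA at 2.42, PIK3R3 at 0.431 and PIK3CD at 0.279 CPM per kb. The ranges of PIK3R1 and MAP3K7 and those of MAP3K7 and PIK3CB overlapped, and the other neighbours did not. With the longest transcript as the length, MAP2K2 (28.5 CPM per kb) came before MAP2K1 (22.8). The 2 genes with the largest rises, PIK3R3 and PIK3CD, were thus the 2 lowest of the 10 in control.

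**Figure D4:**
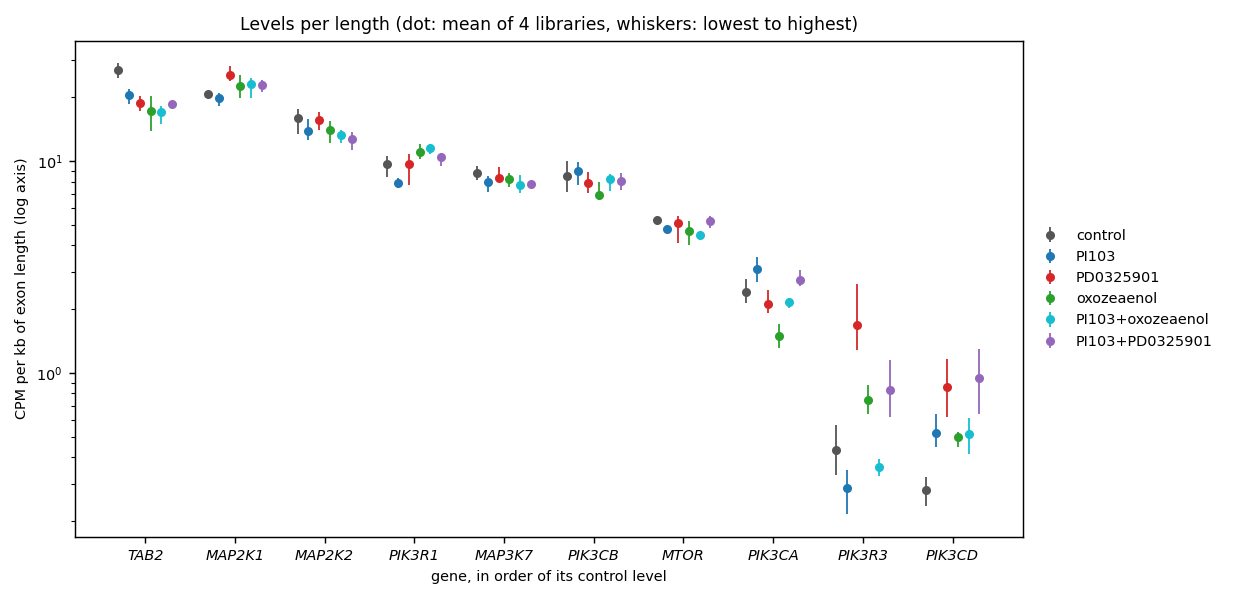
CPM per kb of exon length for each gene and group on a log axis, genes in the order of their control level. Dots are means of 4 libraries and whiskers run from the lowest to the highest library; the mean levels of PIK3R3 and PIK3CD are the 2 lowest in all 6 groups.

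Within the 3 catalytic subunits, PIK3CB made up 75.7% ± 0.968 (SD, n = 4) of the summed level per length in control, PIK3CA 21.7% ± 0.961 and PIK3CD 2.51% ± 0.237. PIK3CD reached 7.79% ± 1.31 with PD0325901 and 8.05% ± 2.29 with PI103 and PD0325901. PIK3CA was at 24.5% ± 1.68 with PI103 and at 16.8% ± 1.20 with oxozeaenol. PIK3CB remained the main catalytic transcript, at 68.5% to 77.5% in the group means.

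For the regulatory subunits PIK3R2, which encodes p85 beta, was added. Its share is uncertain, since 87.2% of its exon length lies in a second gene model on the same strand, AC007192.1. In control PIK3R1 made up 59.0% ± 1.90 (SD, n = 4), PIK3R2 38.4% ± 2.30 and PIK3R3 2.61% ± 0.475. With PD0325901 the shares were 39.4% ± 3.09 for PIK3R1, 53.8% ± 2.88 for PIK3R2 and 6.76% ± 1.90 for PIK3R3. PIK3R1 had a share below control in each treatment, from 39.4% to 51.2% in the group means. With PIK3R2 left out, that direction held in only some treatments. Between PIK3R1 and PIK3R3 alone, the mean PIK3R1 share in control was 95.8% ± 0.619 (SD). Groups above that mean were PI103 (96.5%) and its combination with oxozeaenol (97.0%). Below it lay oxozeaenol (93.7%), PI103 with PD0325901 (92.7%) and PD0325901 (85.3%).

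**Figure D5:**
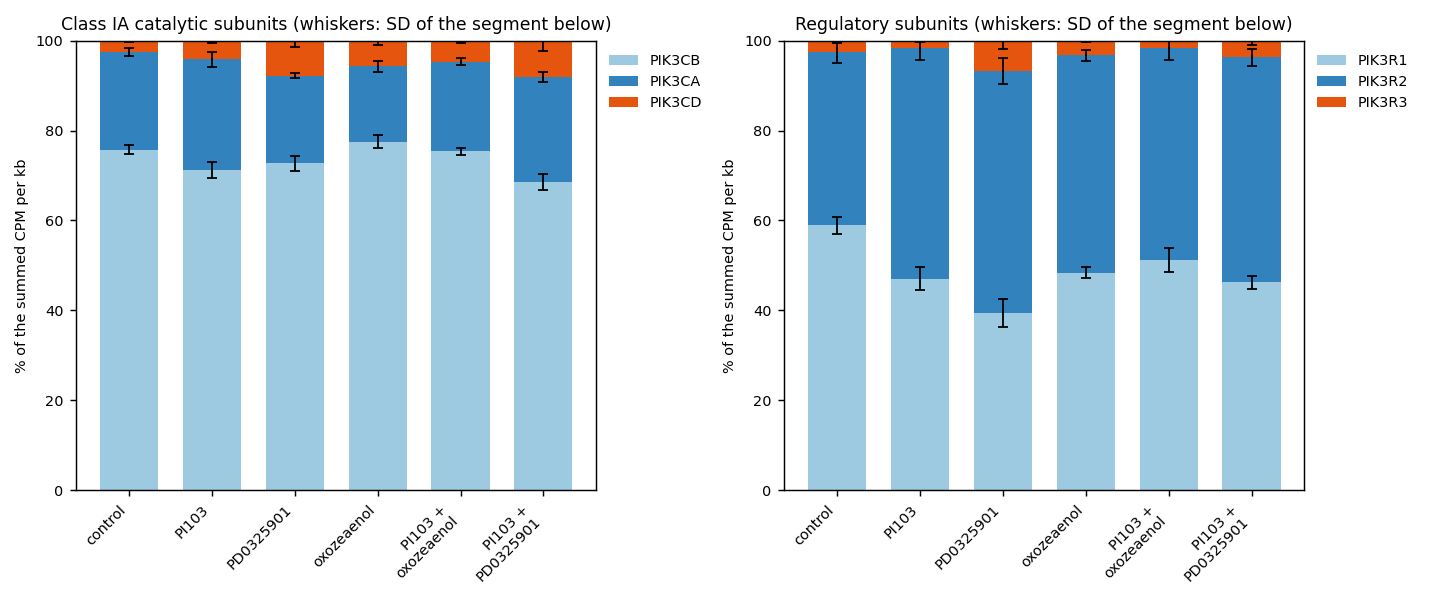
Mean share of each subunit transcript in the summed CPM per kb, for catalytic subunits (left) and regulatory subunits (right), by group. Whiskers are the SD over 4 libraries of the segment below; PIK3CD grows from 2.51% in control to 8.05% with PI103 and PD0325901.

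Other genes of these pathways were counted from lists of pathway genes, by the same test. Over all tested genes 25.7% to 32.2% rose and 25.2% to 32.6% fell in a treatment, and nothing about a list is read from counts near these shares. Of 5 other PI3 kinase family genes tested, 2 or 3 rose in each treatment and the others were not called. PIK3R2 rose in all 5, by a log2 fold change of 0.45 with PI103 (SE 0.09, adjusted p 9.46e-05) and 1.07 with PD0325901 (SE 0.09, adjusted p 9.94e-11), beside PIK3R1, which rose in 1 and fell in 1. Of 12 genes around PI3 kinase, 3 to 5 rose and 1 to 4 fell. The lipid phosphatase gene INPP4B rose in all 5 treatments, most with PD0325901 (1.82, SE 0.24, adjusted p 4.1e-07). PDPK1, whose kinase activates AKT, fell in 4, most with PD0325901 (-0.33, SE 0.08, adjusted p 0.00155).

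Of 18 genes of the mTOR complexes and their control, 4 to 7 rose and 4 to 7 fell. TSC1, which encodes part of the brake on mTOR, rose in all 5 treatments, with a log2 fold change of 0.76 with PI103 (SE 0.12, adjusted p 5.54e-06). EIF4EBP1, which encodes a repressor of translation that mTOR inactivates, fell in all 5. Its log2 fold change was -2.70 with PI103 (SE 0.23, adjusted p 1.23e-09), -1.16 with oxozeaenol (SE 0.22, adjusted p 0.000101) and -3.02 with PI103 and PD0325901 (SE 0.23, adjusted p 8.67e-11). MTOR itself was called in 1 treatment.

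Of 14 genes of the RAS, RAF and ERK cascade, 2 or 3 rose and 5 fell in each treatment. MAPK3, which encodes ERK1, rose by 0.95 to 1.16 on the log2 scale over the 5 treatments. KSR1, which encodes a scaffold for RAF and MEK, fell in all 5, most with PI103 (log2 fold change -1.23, SE 0.15, adjusted p 2.45e-07). Of 15 genes around TAK1, 2 to 4 rose and 2 to 6 fell. RIPK1, which encodes a kinase upstream of TAK1, rose in all 5, most with PI103 and PD0325901 (0.74, SE 0.08, adjusted p 7.42e-09), and CHUK, which encodes IKK alpha, fell in all 5, by the same printed amount with this treatment (-0.76, SE 0.09, adjusted p 3.27e-08) and with PI103 alone (-0.76, SE 0.09, adjusted p 7.81e-08). The median log2 fold change of each list lay between -0.15 and 0.45, beside -0.024 to 0.022 over all tested genes.

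Over the 24 libraries the genes whose log2 CPM ran most like that of PIK3R3 were SORD (Pearson r 0.965), TNFRSF19 (0.954) and TP53INP2 (0.954). For PIK3CD they were C1orf116 (0.961), ST5 (0.956) and PPARA (0.949), and for PIK3CA they were BMPR2 (0.956) and UACA (0.940). These values describe the 24 libraries, which fall into 6 groups, and were picked as the highest of the genes at a mean of at least 5 CPM.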

How the data were processed

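RNA sequencing measured the mRNA of AGS cells in 24 libraries, 6 groups of 4. Per the labels' protocols, libraries were made with a stranded mRNA kit from 0.8 µg of total RNA. The deposited table gives raw read counts as whole numbers, listed by gene symbol. The submitters' processing notes name the build GRCh38. The aligner, the counting program, its strand setting and the annotation are not given in the sources used here. Groups were taken from the sample titles, since the treatment field numbers the compound names upward in later replicates.

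Its 5 closing tallies of unassigned reads (10.7% to 16.5% per library) were left out. The 38.1 M to 84.2 M counts per library were filtered with filterByExpr by group, scaled by TMM and fitted over all 24 libraries, 1 coefficient per group, with edgeR 4.0.16 (robust quasi-likelihood) in R 4.3.3. The test was first tested on simulated data. Each of 12 contrasts was adjusted by Benjamini-Hochberg over 13947 genes. The SE was derived from the log2 fold change and its F statistic, and intervals are the estimate with its normal 95% range. The log2 CPM used for likeness had a prior count of 2. The common biological coefficient of variation was 0.131.

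Alternatives were the size factors of DESeq2 within edgeR, total counts alone, no filter, DESeq2 1.42.0, the replicate number as a block, only the 2 groups compared, a minimum of 1.5-fold, and each library left out in turn. In the labels the batch field equals the replicate number, so the numbers pair samples across groups. Libraries with the same number in different groups had a mean correlation of deviations of 0.12 (47 of 60 pairs positive), beside -0.04 over 180 other pairs. No 2 replicates agreed within sampling noise (36 pairs).

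Genome positions and exon lengths came from GENCODE 29 on GRCh38, and promoters from RefSeq on GRCh38.p14. The 10 genes, the lists and the tests were chosen with earlier results of these data known. All 10 genes are named whatever their values. From each list the gene with the largest rise and the one with the largest fall are named, among those called in the most treatments at a mean of at least 1 CPM. Further listed genes called the same way in all 5 treatments are named once, beside PIK3CD and TAB2, and were chosen after their values were seen. The 3 most similar genes are named for the 3 genes with the widest range of group means, among genes at a mean of at least 5 CPM. Of the genes these rules name, 1 similar gene and 1 marker gene are not reported here.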

Additional observations from a re-analysis of the deposited data

Results flagged for a closer look

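In 5 of 60 groups of 4 libraries 1 library stood apart from the other 3, by a gap test that chance passes in about 1 of 20 groups. PIK3R3 was at 19.4 CPM in PD0325901 replicate 2, with the others at 9.52 to 11.1 CPM, and its rise was called with and without it. MAP3K7 was at 68.0 CPM in the same library, with the others at 57.7 to 58.4 CPM. MTOR was at 49.8 CPM in PD0325901 replicate 3, with the others at 65.9 to 66.7 CPM. PIK3CB was at 62.5 CPM in oxozeaenol replicate 1, with the others at 51.3 to 52.1 CPM, and at 56.6 CPM in replicate 4 of PI103 with oxozeaenol, with the others at 66.5 to 68.0 CPM.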

How the results depend on the processing

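TMM and the size factors of DESeq2 gave the same call and direction for all 50 pairs of gene and contrast against control and all 70 between treatments. Scaling by total counts alone moved the median log2 fold change of all genes by 0.03 to 0.13 against control, most with PI103 and PD0325901, and lowered the count for PI103 against control from 5 to 3. The split of rises and falls against control was then 2 and 1 with PI103, 3 and 1 with PD0325901, 2 and 2 with oxozeaenol, 3 and 1 with PI103 and oxozeaenol, and 5 and 1 with PI103 and PD0325901. Under it the uncalled log2 fold changes that crossed 0 were MAP2K1 with PI103 (0.019), MTOR (0.049), MAP2K2 (0.053) and MAP3K7 (0.010) with PD0325901, PIK3CB with PI103 and oxozeaenol (0.015), and PIK3CB (0.055) and MTOR (0.11) with PI103 and PD0325901. Between treatments these were TAB2 for PI103 with oxozeaenol against oxozeaenol (0.010), MAP3K7 for PI103 with PD0325901 against PI103 (0.040), TAB2 for PI103 with PD0325901 against PD0325901 (0.015) and MAP2K2 for PI103 against oxozeaenol (0.020). With no filter PIK3R1 with PD0325901 was -0.015. With the replicate number as a block, the count for PI103 with oxozeaenol against PI103 was 4. The block lost no call and gained 2 against control and 6 between treatments, all given in the report. With a minimum of 1.5-fold the counts were 2 for PI103, PD0325901 and both combinations against control. Under that minimum they were 0 and 1 for PI103 with oxozeaenol against PI103 and oxozeaenol, 1 for PI103 with PD0325901 against PD0325901, and 2 for PI103 against PD0325901 and against oxozeaenol.

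With each library left out in turn, the genes called numbered 4 to 6 for PI103, 4 for PD0325901, 4 to 6 for oxozeaenol, 3 to 5 for PI103 with oxozeaenol and 4 to 5 for PI103 with PD0325901 against control. They numbered 2 to 3 for PI103 with oxozeaenol against PI103 and against oxozeaenol, 3 and 1 to 3 for PI103 with PD0325901 against PI103 and PD0325901, 5 for PI103 against PD0325901, 4 to 5 for PI103 against oxozeaenol and 3 to 5 for oxozeaenol against PD0325901. Uncalled log2 fold changes that crossed 0 in at least 1 such fit are given by their lowest and highest value. For PI103 with oxozeaenol against oxozeaenol these were MAP2K1 -0.036 to 0.095, PIK3CD -0.054 to 0.13 and TAB2 -0.11 to 0.063. For PD0325901 against control these were MAP2K2 -0.078 to 0.031, MTOR -0.070 to 0.054, PIK3CB -0.18 to 0.019 and PIK3R1 -0.059 to 0.10. For PI103 against oxozeaenol these were MAP2K2 -0.097 to 0.029, MTOR -0.046 to 0.084 and PIK3CD -0.060 to 0.12. For PI103 with oxozeaenol against PI103 these were MAP2K2 -0.096 to 0.020, MAP3K7 -0.097 to 0.011 and PIK3CD -0.11 to 0.097. For PI103 with PD0325901 against PI103 this was MAP3K7 -0.064 to 0.018. For oxozeaenol against PD0325901 this was MAP3K7 -0.084 to 0.014. For PI103 with PD0325901 against PD0325901 these were MTOR -0.077 to 0.051, PIK3CB -0.025 to 0.069 and PIK3CD -0.034 to 0.33. For PI103 with PD0325901 against control these were MTOR -0.053 to 0.012 and PIK3CB -0.15 to 0.029. For PI103 with oxozeaenol against control this was PIK3CB -0.12 to 0.051. PIK3CD and TAB2 kept their direction and call against control in every alternative run without a minimum fold. In control PIK3CD had the lowest level per length of the 10 genes and PIK3R3 the next lowest, and these 2 had the widest SE against control.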
